A study of Mus musculus with 8 samples.

Results

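The factors that start and lengthen protein chains on the cytosolic ribosome were examined in the hearts of 8 mice with Illumina bead arrays, 1 array per heart. A probe was counted as a translation factor if its gene symbol began with Eif1 to Eif6, Eef1 or Eef2. The genes of the eIF2 kinases (Eif2ak) and of the exchange factor eIF2B (Eif2b), the genes Eif2s1, Eif2s3x and Eif2s3y, and the genes of the 4E-binding proteins (Eif4ebp) were left out by this definition. A probe also needed a detection p below 0.05, the array software's measure of signal over background, in 4 or more hearts. Of 79 probes of 45 such genes on the array, among 25697 probes in all, 57 probes of 35 genes met this requirement and were tested among 9397 probes.

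In 4 mice the gene Taz, which encodes the mitochondrial cardiolipin-remodelling enzyme tafazzin, was lowered by a transgenic short hairpin RNA that is switched on by doxycycline. The other 4 were wild-type littermates. All 8 mice were 2 months old, were on the C57BL/6J background and were fed doxycycline at 625 mg/kg of diet, so both groups shared the drug. The labels do not name the promoter of the hairpin, the sex of the mice or the part of the heart taken. Loss of tafazzin underlies Barth syndrome, which the knockdown mouse models, and the comparison asks which transcripts differ when Taz is low.

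Initiation factors bring the initiator tRNA, the messenger RNA and the small ribosomal subunit together and find the start codon. eIF2 carries the initiator tRNA, eIF3 holds the small subunit open to the message, the eIF4 factors bind the cap and unwind the leader, eIF5 triggers GTP hydrolysis by eIF2 at the start codon, and eIF6 keeps free large subunits apart from small ones. Elongation factor eEF1A delivers aminoacyl-tRNA, eEF1B reloads it with GTP, and eEF2 moves the ribosome on by a codon. Many of the factors are known to be made under the control of mTORC1, and phosphorylation of eIF2 is the switch of the integrated stress response.

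The arrays detected between 8935 and 10183 probes each, and normalized intensities of pairs of arrays correlated across tested probes at 0.971 to 0.981 between hearts of different groups, against 0.980 to 0.990 within groups. Taz itself fell by 2.88 on the log2 scale by ILMN_2978525 (limma adjusted p = 1.11e-07), with no overlap of the groups. Of 10 probes of 8 tested cardiomyocyte markers none passed, and 9 had negative differences, with a median of -0.04. The list had summed deposited signals of 134587 to 162267 in wild-type and 129865 to 168579 in knockdown hearts. Its differences ran from -0.41 (Tnni3) to 0.16 (Actc1 by ILMN_2598916). Ttn stood at -0.25 with no overlap of the groups, and the ventricular light chain Myl2 at -0.02. Ryr2 was below the detection requirement and 1 cardiomyocyte gene of the list was not analysed here. Among 6 tested atrial and conduction probes 1 was lower (Kcnj3, -0.61) and 5 did not pass, all 6 with negative differences (summed signals 31182 to 66841 in wild-type and 28182 to 40927 in knockdown hearts). The smooth muscle list had 4 of 8 probes higher, all of them probes of the actin gene Acta2 (0.85 to 1.28), while its smooth muscle myosin Myh11 (-0.33) and Tagln (-0.42) did not pass (summed signals 9314 to 16450.4 in wild-type and 19224 to 30350.0 in knockdown hearts). None of the 6 endothelial, 5 fibroblast, 3 erythroid and 2 skeletal muscle probes tested passed, with summed signals of 1376 to 2153 in wild-type and 1582 to 2258 in knockdown hearts, of 2853 to 4425 in wild-type and 2972 to 4737 in knockdown hearts, of 37004 to 47646 in wild-type and 38438 to 55682 in knockdown hearts and of 5297 to 7966 in wild-type and 6617 to 10439 in knockdown hearts. All 3 erythroid probes had positive differences, at 0.94 for Slc4a1 (adjusted p = 0.0583), 0.59 for Alas2 (adjusted p = 0.189) and 0.09 for Hba-a1, with a median of 0.59. Of the leukocyte list 1 of 2 tested probes was lower (Lyz2, -0.48), and Ptprc, Adgre1, Cd3e and Cd79a were detected on no array (summed signals 1245 to 2045 in wild-type and 1109 to 1639 in knockdown hearts). Myh1, Myh4 and Tnnt3 of skeletal muscle were likewise detected on no array. In whole hearts more cells of a type and more RNA per cell cannot be told apart, and the part of the Acta2 and erythroid differences in the values below was not tested. For the atrial list, fits with the level of Myl7 as a covariate are given beside the calls they end.

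Most translation factor probes had small positive differences between knockdown and wild-type hearts, and Eif5 was the gene whose probes passed the test. Of the 57 probes 3 rose, all of them probes of Eif5, none fell and 54 did not pass (limma with Benjamini-Hochberg adjustment over all 9397 probes, threshold 0.05). That is 5.26% of the factor probes, beside 6.58% of all tested probes (3.42% higher and 3.16% lower), so the share of called factor probes was close to the background. The directions were less even than the background. Positive differences were found for 46 of the 57 probes (80.7%), against 48.5% of all tested probes, and the median log2 difference was 0.14 against -0.01. An unadjusted p under 0.05 was reached by 17 factor probes, all higher (29.8%), where 20.8% of all probes did so, 9.92% higher and 10.9% lower. In 14 probes every knockdown heart lay above every wild-type heart, and in no factor probe did every knockdown heart lie below. Of all tested probes 14.6% had groups that did not overlap, 6.98% with knockdown above and 7.65% with knockdown below.

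**Figure D1:**
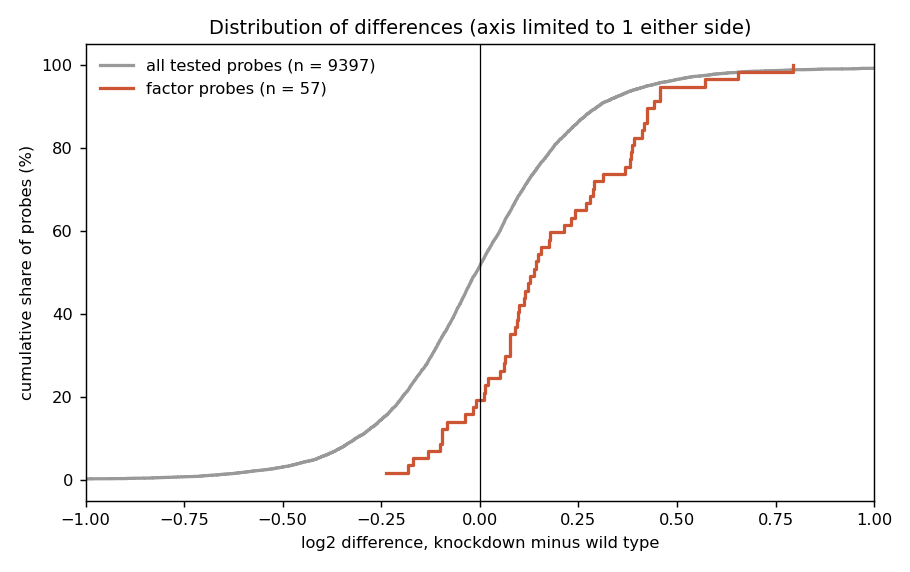
Cumulative share of probes (vertical axis, percent) against the log2 difference between knockdown and wild-type hearts (horizontal axis, limited to 1 either side of 0), for the 57 factor probes and for all 9397 tested probes. The factor curve lies to the right of the other over most of the axis, with medians of 0.14 and -0.01.

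Since genes with several probes weigh more in such counts, probes were also averaged by gene. Of 35 factor genes 28 (80.0%) had positive differences with a median of 0.13, against 48.0% and -0.01 for all 6889 named genes, and 11 (31.4%) were higher at an unadjusted p under 0.05 against 10.1%. Averaged in this way 2 of the 35 genes passed after adjustment, Eif5 and Eif5a, both higher. Of all 6889 named genes 244 were higher and 234 lower after adjustment. The same leaning was seen among the brighter probes alone. At or above the median level of the factor probes (8.39 on the log2 scale) 26 of 29 factor probes (89.7%) but 48.5% of all 2222 tested probes were positive. After adjustment 6.9% of these factor probes passed, against 9.81% of all tested probes at this level. By heart, the mean deviation of the 57 probes from their wild-type means was 0.00, -0.03, 0.05 and -0.02 (wild type) against 0.20, 0.23, 0.14 and 0.14 (knockdown), in both cases for hearts 1 to 4. The 4 knockdown hearts lay above the 4 wild-type hearts on this mean, and knockdown heart 2 was the highest. These counts and medians describe the list and carry no test of their own, and probes of 1 gene are not independent of each other.

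**Figure D2:**
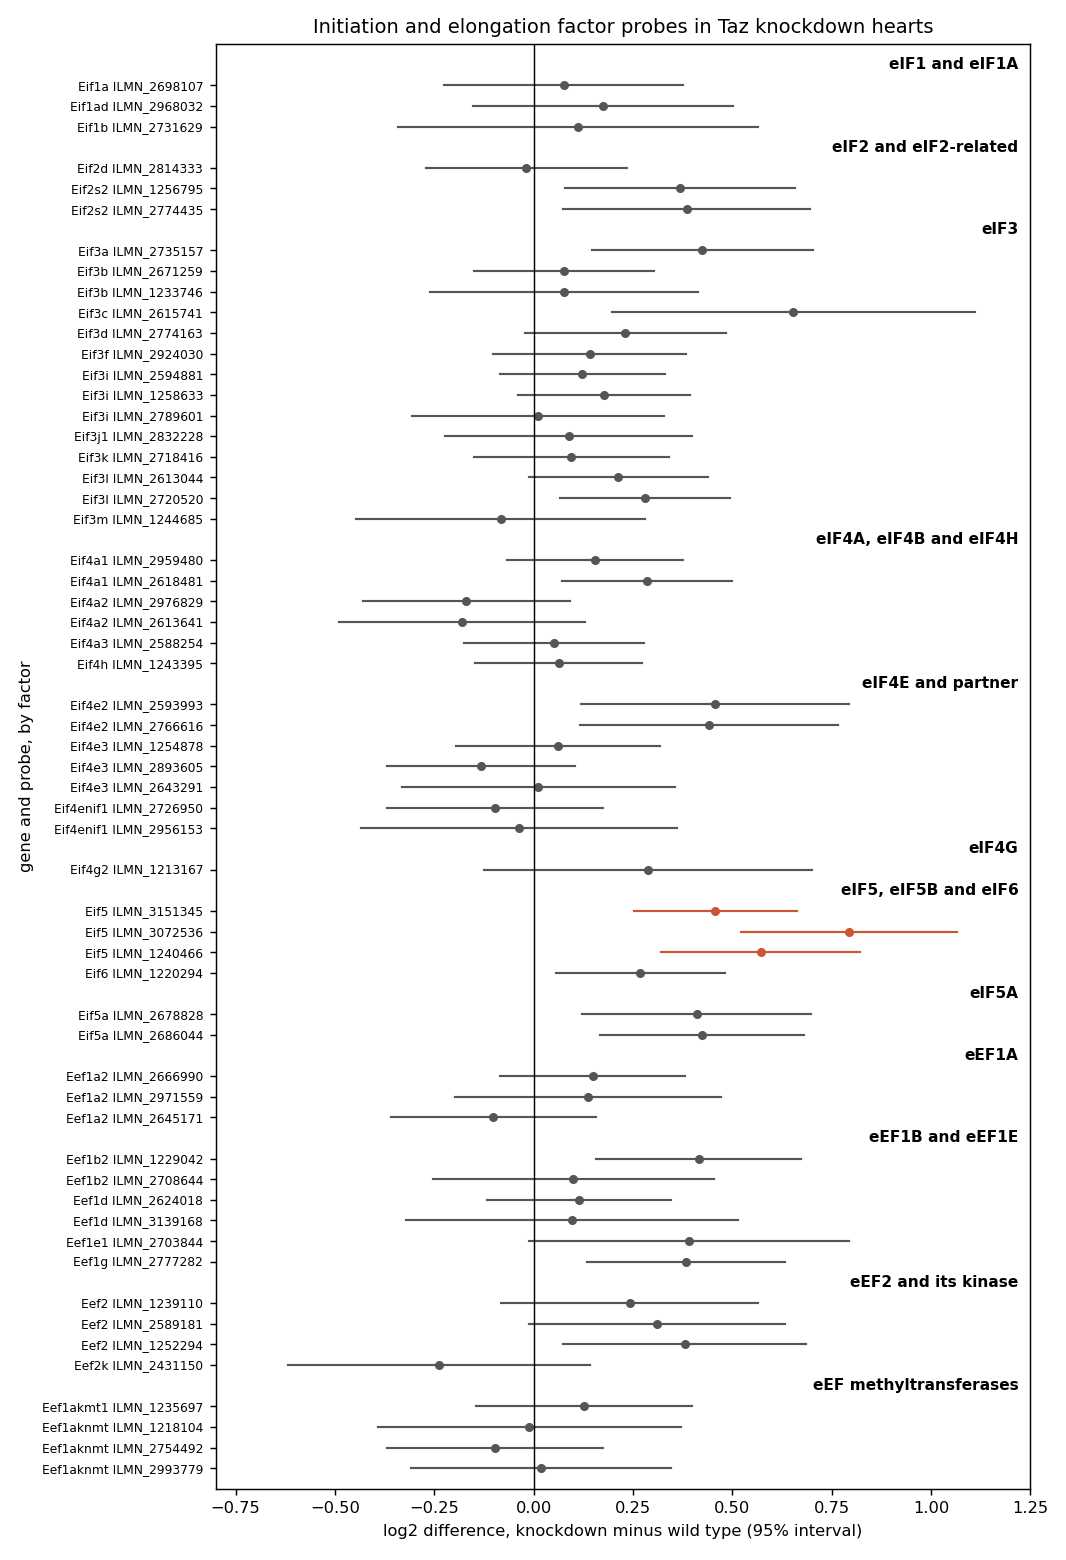
Log2 difference between knockdown and wild-type hearts (horizontal axis) for each of the 57 tested factor probes (rows, grouped by factor), with 95% intervals from limma. The 3 Eif5 probes that passed are in orange at 0.46 to 0.79, and most other points lie right of 0 with intervals that reach it or p-values that did not pass.

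Eif5, the GTPase-activating partner of eIF2 that licenses the start codon, rose by all 3 of its probes. Values of single hearts are given for hearts 1 to 4 of each group in turn. The probe ILMN_3072536 had deposited signals of 523, 659, 539 and 685 (wild type) against 1306, 1209.5, 919 and 925 (knockdown). After normalization its log2 intensities were 8.99, 9.31, 9.41 and 9.43 (wild type) against 10.10, 10.20, 9.92 and 10.09 (knockdown). All knockdown hearts lay above all wild-type hearts, and wild-type heart 1 was the lowest. The rise was 1.73-fold (95% interval 1.44 to 2.09), with a log2 difference of 0.79 ± 0.124 (SE) (limma adjusted p = 0.00345).

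The probe ILMN_1240466 gave log2 intensities of 7.39, 7.36, 7.65 and 7.40 (wild type) against 8.11, 8.10, 7.81 and 8.07 (knockdown), a rise of 1.49-fold (95% interval 1.25 to 1.77) with limma adjusted p = 0.0127. Here wild-type heart 3 stood above and knockdown heart 3 below the rest of their groups, and they came within 0.164 of each other without crossing. The third probe, ILMN_3151345, read 10.46, 10.31, 10.31 and 10.40 (wild type) against 10.86, 10.85, 10.79 and 10.81 (knockdown), a rise of 1.37-fold (95% interval 1.19 to 1.58) with limma adjusted p = 0.0144. Its groups were the tightest of the 3, with SDs of 0.0733 in wild-type and 0.0310 in knockdown hearts (n = 4 each). All 3 calls held when any one heart was left out. None held once the intensity of Myl7, an atrial myosin gene, entered the fit as a covariate, where the differences were 0.96 for ILMN_3072536, 0.52 for ILMN_1240466 and 0.48 for ILMN_3151345 (limma adjusted p = 0.0529, 0.276 and 0.229). That fit called 1.05% of all tested probes, beside 6.58% without the covariate. Myl7 itself differed by -0.71 between the groups (adjusted p = 0.0526) with no overlap, so the fit can hardly separate its level from the group.

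**Figure D3:**
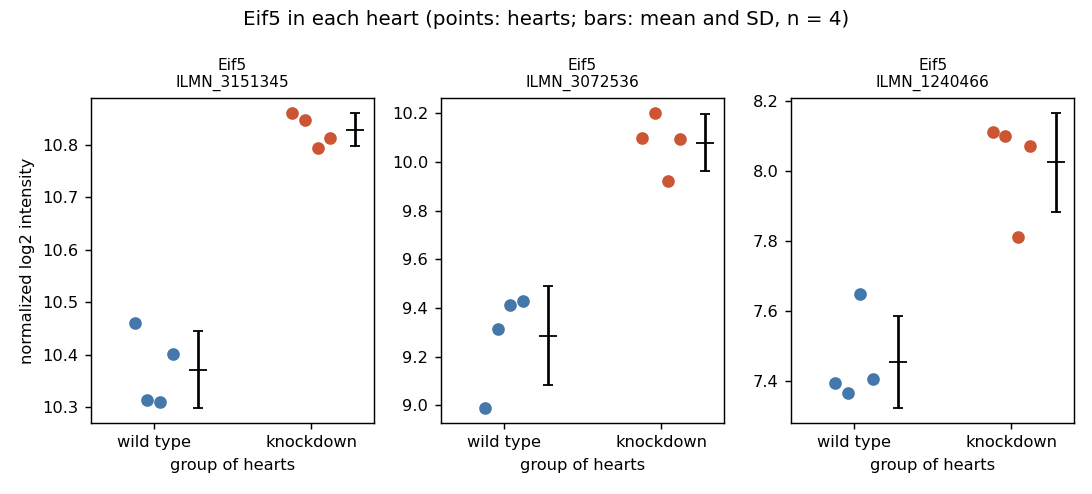
Normalized log2 intensity (vertical axes, each with its own range and not starting at 0) of the 3 Eif5 probes in the 4 wild-type and 4 knockdown hearts, with points for hearts and bars for mean and SD. In each panel the 4 knockdown hearts lie above the 4 wild-type hearts, by differences of mean of 0.46, 0.79 and 0.57.

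Because Eif5 was the gene whose probes passed the test, the 250 bases before its annotated start are shown. They come from RefSeq on build GRCm38.p6 at chr12:111537851-111538100, plus strand, 5′ to 3′, in lower case since no searched motif lay in them.
Eif5: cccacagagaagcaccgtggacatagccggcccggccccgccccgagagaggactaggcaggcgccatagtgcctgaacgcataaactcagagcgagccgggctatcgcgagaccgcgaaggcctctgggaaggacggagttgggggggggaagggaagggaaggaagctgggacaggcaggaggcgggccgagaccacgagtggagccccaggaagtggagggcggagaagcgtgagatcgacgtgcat
The motif searched was TGATGNAAN, the C/EBP-ATF response element through which ATF4 is known to act, on both strands of windows from 250 bases before to 50 bases after each start. Of 35 tested factor genes 27 were matched to a promoter by symbol, and 1 of them, 3.70%, held the motif, beside 4.496% of all 27025 genes in the RefSeq table. That gene was Eef2k, with the letters GTTTCATCA at position -85 from 1 of its 3 annotated starts, where the motif lies on the opposite strand, and no match at the other 2. A match of letters is not a binding site, and the lack of one says only that these letters are not in this window.

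Among the factors that find and hold the start codon, 3 probes of genes named for eIF1 or eIF1A were tested. Their differences of 0.08 to 0.17 did not pass. Eif1b read 8.22, 7.72, 8.83 and 8.58 (wild type) against 8.38, 8.59, 8.57 and 8.26 (knockdown), and wild-type heart 2 was low and wild-type heart 3 high, so that the groups overlapped throughout. Its log2 difference was 0.11 ± 0.206 (SE), with a 95% interval of -0.34 to 0.56. Eif1ad, named for its eIF1A domain, read 7.43, 7.72, 7.79 and 7.41 (wild type) against 7.40, 7.96, 7.74 and 7.94 (knockdown) and differed by 0.17 ± 0.149 (SE) (limma adjusted p = 0.566), with 2 knockdown hearts above and 1 below the wild-type range. Eif1a stood at 0.08 (-0.22 to 0.38).

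Eif2s2, the beta subunit of eIF2 that eIF5 contacts, had positive differences by both probes that did not pass. By ILMN_1256795 it read 7.55, 7.34, 7.59 and 7.53 (wild type) against 8.08, 8.08, 7.63 and 7.70 (knockdown). The knockdown hearts 1 and 2 stood well above the wild-type hearts, while 3 and 4 lay just above the highest of them. The difference was 0.37 ± 0.132 (SE) (limma adjusted p = 0.137) and by the other probe 0.39 ± 0.142 (SE) (adjusted p = 0.146). Eif2d, which can place tRNA on the small subunit without eIF2, read 7.76, 7.94, 8.21 and 7.99 (wild type) against 7.88, 8.04, 7.93 and 7.96 (knockdown) and differed by -0.02 ± 0.115 (SE), with knockdown hearts inside the wild-type range.

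eIF3, the largest initiation complex, had positive differences for 13 of 14 tested probes of 10 subunit genes, with a median of 0.13, and none passed. The scaffold subunit Eif3a had the smallest p of them and read 5.29, 5.52, 5.62 and 5.67 (wild type) against 5.74, 5.91, 5.97 and 6.17 (knockdown). All knockdown hearts lay above all wild-type hearts, the difference was 0.42 ± 0.127 (SE) and limma adjusted p was 0.0739. This probe of Eif3a was dim, with mean deposited signals of 30.2 in wild-type and 46.4 in knockdown hearts. The other Eif3a probes, ILMN_2845039 and ILMN_2690686, were detected on no array. Eif3i, a WD-repeat subunit, read 11.79, 11.84, 11.96 and 11.86 (wild type) against 12.02, 12.04, 11.94 and 11.94 (knockdown) by ILMN_2594881 and differed by 0.12 ± 0.0944 (SE) (adjusted p = 0.517), with 2 knockdown hearts above the wild-type range. Its other probes stood at 0.18, with all knockdown hearts above all wild-type hearts, and at 0.01.

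The largest value in eIF3 was that of the core subunit Eif3c, described here after its value was seen, at 0.65 ± 0.208 (SE) with limma adjusted p = 0.0936. Its readings were 5.79, 5.49, 6.09 and 6.16 (wild type) against 6.93, 6.64, 6.61 and 5.96 (knockdown). Knockdown heart 4 lay inside the wild-type range and the other knockdown hearts above it, and without knockdown heart 4 the difference was 0.85 and passed (adjusted p = 0.0209). Eif3l differed by 0.21 and 0.28, both probes without overlap of the groups, Eif3d by 0.23, Eif3f by 0.14, Eif3b by 0.08 and 0.08, Eif3j1 by 0.09, Eif3k by 0.09 and Eif3m by -0.08. Eif3b (ILMN_1233746) and Eif3m were detected on exactly 4 arrays, and so was 1 probe of Eef1aknmt (ILMN_2993779, 0.02). Just outside the requirement, 1 probe of Eif4g2 (ILMN_2625167) was detected on 3 arrays, with mean deposited signals of 13.1 and 13.7 in wild-type and knockdown hearts.

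The cap-binding and unwinding factors went both ways, and none passed. Eif4a1, the helicase of cap-dependent initiation, read 7.49, 7.45, 7.34 and 7.33 (wild type) against 7.73, 7.74, 7.69 and 7.59 (knockdown) by ILMN_2618481, with no overlap. Its difference was 0.29 ± 0.0970 (SE) (limma adjusted p = 0.115), and 0.15 by its other probe. The related helicase Eif4a2 read 11.60, 11.46, 11.90 and 11.79 (wild type) against 11.64, 11.43, 11.53 and 11.48 (knockdown) and differed by -0.17 ± 0.119 (SE) (adjusted p = 0.467), with -0.18 by its other probe. Only knockdown heart 2 lay below the wild-type range of the first of these probes. Eif4a3, the helicase of the exon junction complex, stood at 0.05 and the helicase cofactor Eif4h at 0.06. Whether Eif4a1 and Eif4a2 differ in their difference was not tested.

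Eif4e2, a cap-binding relative of eIF4E that can repress translation, read 5.50, 5.30, 5.26 and 4.82 (wild type) against 5.75, 5.54, 5.53 and 5.81 (knockdown) by ILMN_2766616, detected in 3 of 4 wild-type hearts. The knockdown hearts lay above the wild-type hearts by 0.44 ± 0.148 (SE) (limma adjusted p = 0.111), or by 0.35 once its undetected reading was set to the floor of detected signals on that array. The other tested probe stood at 0.46 ± 0.153 (SE), with readings of 7.93, 7.48, 7.34 and 7.26 (wild type) against 7.94, 7.74, 8.12 and 8.04 (knockdown), where wild-type heart 1 was high and knockdown heart 2 lay below it. Without wild-type heart 1 it passed, at 0.60 (adjusted p = 0.0223).

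Eif4e3, another cap-binding relative, read 8.58, 8.44, 8.29 and 8.44 (wild type) against 8.68, 8.46, 8.58 and 8.29 (knockdown) and differed by 0.06 ± 0.117 (SE), and its other probes by -0.13 and 0.01. The eIF4E transporter Eif4enif1 stood at -0.10 and -0.04. Eif4g2, a scaffold that works without eIF4E, read 6.85, 6.56, 6.65 and 6.996 (wild type) against 7.63, 6.96, 6.96 and 6.67 (knockdown). Knockdown heart 1 alone lay above the wild-type range, and the difference was 0.29 ± 0.187 (SE) (limma adjusted p = 0.433).

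Eif5a, the hypusine-bearing factor that keeps the ribosome moving through difficult peptide bonds, came near the threshold by both probes. By ILMN_2686044 it read 9.77, 10.002, 9.63 and 9.93 (wild type) against 10.11, 10.42, 10.24 and 10.26 (knockdown), with no overlap, and differed by 0.42 ± 0.117 (SE) (limma adjusted p = 0.0556). By ILMN_2678828 it read 10.42, 10.73, 10.26 and 10.15 (wild type) against 10.80, 10.87, 10.71 and 10.82 (knockdown), where knockdown heart 3 lay just below the high wild-type heart 2, and differed by 0.41 ± 0.131 (SE) (adjusted p = 0.0939). Without wild-type heart 2 the second probe passed, at 0.53 (adjusted p = 0.0291), and with the probes averaged Eif5a passed at 0.42 (adjusted p = 0.0463). Eif6, described by its single probe, differed by 0.27 ± 0.0968 (SE) with no overlap of the groups and did not pass (adjusted p = 0.139).

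**Figure D4:**
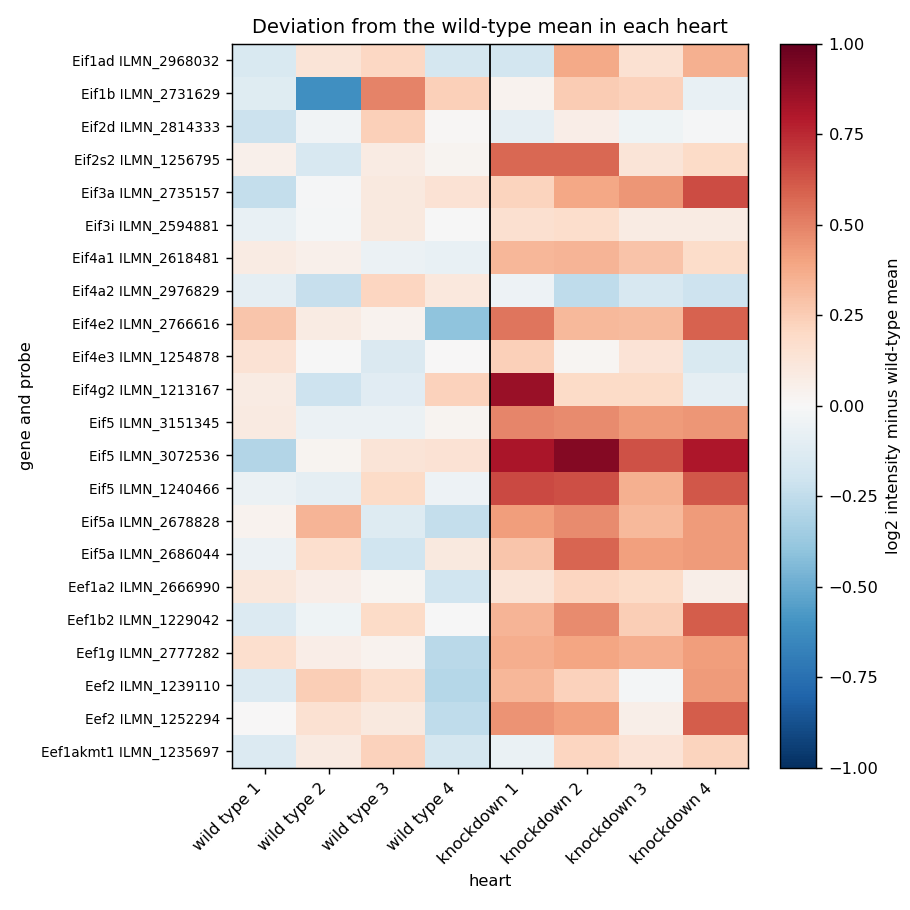
Deviation of each heart from the wild-type mean (colour, log2 scale from -1 to 1) for 22 factor probes, those that passed and 1 or 2 of each factor (rows) in the 4 wild-type and 4 knockdown hearts (columns). In the 3 Eif5 rows every knockdown heart lies at least 0.36 above the wild-type mean.

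For elongation, all 17 tested probes of 9 Eef genes failed to pass, 13 of them with positive differences and a median of 0.13. Eef1a2, the eEF1A form of muscle and neurons, read 13.33, 13.29, 13.23 and 13.01 (wild type) against 13.34, 13.43, 13.41 and 13.28 (knockdown) by ILMN_2666990 and differed by 0.15 ± 0.106 (SE) (limma adjusted p = 0.477). By this probe 3 knockdown hearts lay above the wild-type range and knockdown heart 4 inside it, and the other probes of Eef1a2 stood at 0.14 and -0.10. The interval of the first probe, -0.08 to 0.38, has an upper end at 1.30-fold.

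The exchange complex eEF1B had 6 of 6 tested probes positive, counting Eef1e1, with a median of 0.25. Eef1g, its gamma subunit, read 12.40, 12.29, 12.26 and 11.96 (wild type) against 12.59, 12.62, 12.59 and 12.65 (knockdown). The knockdown hearts lay within 0.06 of each other and above all wild-type hearts, of which heart 4 was low. The difference was 0.38 ± 0.113 (SE) (limma adjusted p = 0.0716). Eef1b2, the beta subunit that catalyses exchange, read 10.45, 10.54, 10.78 and 10.58 (wild type) against 10.93, 11.06, 10.83 and 11.19 (knockdown) by ILMN_1229042, again with no overlap, and differed by 0.42 ± 0.117 (SE) (adjusted p = 0.0613). Its other probe differed by 0.10 ± 0.160 (SE) with overlapping groups, so the probes of Eef1b2 gave unequal values. Eef1d stood at 0.12 and 0.10, the second detected on 5 arrays and turning to -0.03 with undetected readings set to the floor, and Eef1e1, a component of the synthetase complex that resembles eEF1 subunits, at 0.39 ± 0.183 (SE), or 0.33 with the floor, detected in 2 of 4 wild-type and 4 of 4 knockdown hearts.

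Eef2, the translocase, had positive differences by all 3 probes. ILMN_1252294 read 8.98, 9.13, 9.08 and 8.73 (wild type) against 9.43, 9.39, 9.04 and 9.58 (knockdown) and differed by 0.38 ± 0.139 (SE) (limma adjusted p = 0.144). Knockdown heart 3 lay inside the wild-type range and the other 3 above it. ILMN_1239110 read 10.49, 10.87, 10.80 and 10.34 (wild type) against 10.96, 10.85, 10.60 and 11.05 (knockdown) and differed by 0.24 ± 0.147 (SE) (adjusted p = 0.398), and the remaining probe by 0.31. Eef2k, the kinase that inhibits eEF2, was dim, detected in 3 of 4 wild-type and 2 of 4 knockdown hearts, and stood at -0.24 ± 0.173 (SE) (adjusted p = 0.484), or -0.15 with the floor. Of the enzymes that methylate eEF1A, Eef1akmt1 read 9.34, 9.57, 9.71 and 9.31 (wild type) against 9.42, 9.70, 9.62 and 9.70 (knockdown) and differed by 0.13 ± 0.124 (SE) (adjusted p = 0.629), and the 3 tested probes of Eef1aknmt stood between -0.10 and 0.02.

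The remaining 22 probes, which included all probes of 10 genes, did not meet the detection requirement. Of them 18 were detected on no array. The 10 genes were Eif1ax, Eif3e, Eif3h, Eif4b, Eif4e, Eif4e1b, Eif5b, Eif5a2, Eef1a1 and Eef1akmt2. Eif4b, a cofactor of the helicase, was detected in 0 of 4 wild-type and 2 of 4 knockdown hearts. A probe without signal does not show that its transcript is missing, which bears on Eef1a1 and Eif4e, both known to be made by most cells. Probe sequences were not used here, so whether probes tell close relatives such as Eef1a1 and Eef1a2 or Eif4a1 and Eif4a2 apart was not checked.

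Other genes of translation, outside the definition of the factors, were read from 5 lists. Of 45 tested probes of 30 such genes, 5 probes of 4 genes rose, 1 fell and 39 did not pass, 13.3% in all beside 6.58% of all tested probes. The median difference was 0.09. The cytoplasmic and mitochondrial lists differed in the sign of their medians, at 0.48 for poly(A)-binding proteins, 0.10 for other initiation proteins, 0.22 for termination, recycling and rescue, 0.09 for diphthamide and hypusine synthesis and -0.09 for mitochondrial factors. That difference was not tested.

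Pabpc4, a poly(A)-binding protein of messenger RNA, read 10.13, 10.01, 9.85 and 9.74 (wild type) against 10.42, 10.90, 10.56 and 10.64 (knockdown) and rose 1.62-fold (95% interval 1.33 to 1.98) (limma adjusted p = 0.00964). Its other probe stood at 0.44, or 0.34 with undetected readings set to the floor. That probe was detected in 1 of 4 wild-type and 3 of 4 knockdown hearts, so it met the detection requirement mainly through knockdown hearts. It is also 1 of the 4 probes behind the median of 0.48 for poly(A)-binding proteins. Mknk1, a kinase that phosphorylates eIF4E, read 8.15, 8.49, 8.22 and 8.33 (wild type) against 8.72, 8.88, 8.89 and 9.02 (knockdown) and rose 1.50-fold (95% interval 1.26 to 1.78) (adjusted p = 0.0114), while the related kinase Mknk2 stood at 0.07. By ILMN_3159730 of Pabpc4 and by the Mknk1 probe the groups did not overlap, while the other Pabpc4 probe had knockdown heart 4 inside the wild-type range. Among 10 probes of termination and rescue 3 rose. Gtpbp2, which helps rescue stalled ribosomes, read 9.97, 9.997, 9.97 and 9.82 (wild type) against 10.52, 10.56, 10.62 and 10.66 (knockdown) and rose 1.57-fold (95% interval 1.36 to 1.82) (adjusted p = 0.00243). With the Myl7 covariate, where 1.05% of all tested probes were called, none of Pabpc4, Mknk1 and Gtpbp2 passed (limma adjusted p = 0.252, 0.104 and 0.156). Nor did Hbs1l or Tufm, described next. Without the dimmest array of each group Gtpbp2 passed, and Pabpc4 (adjusted p = 0.0590) and Mknk1 (adjusted p = 0.0752) did not.

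Hbs1l, the GTPase that works with Pelo on stalled ribosomes, rose 1.35-fold (95% interval 1.16 to 1.56) by ILMN_3139405 (limma adjusted p = 0.0229) and 1.31-fold (95% interval 1.13 to 1.52) by ILMN_1229378 (adjusted p = 0.0410), with the third tested probe at 0.30 and not past the threshold. The call of the first was lost without wild-type heart 1 or 3 or knockdown heart 1, 2 or 3 (adjusted p = 0.0505 to 0.0714), and that of the second without any heart but knockdown heart 4 (adjusted p = 0.0603 to 0.111). Pelo itself stood at 0.16 and the release factor Etf1 at 0.28. None of 6 probes of diphthamide and hypusine synthesis passed, the smallest p being that of Dph2 by ILMN_2847024 (0.25, adjusted p = 0.253), whose other tested probe had the opposite sign (-0.26, adjusted p = 0.371).

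Tufm, the mitochondrial counterpart of eEF1A, fell. It read 12.74, 12.76, 12.65 and 12.64 (wild type) against 12.26, 12.35, 12.28 and 12.41 (knockdown), with every knockdown heart below every wild-type heart, a 1.29-fold (95% interval 1.12 to 1.49) decrease with limma adjusted p = 0.0435. The call was lost without any single heart (adjusted p = 0.0600 to 0.118), at differences between -0.40 and -0.34. Of 10 tested probes of mitochondrial translation factors 9 were negative, and the 9 other than Tufm did not pass, among them Tsfm, the exchange factor for Tufm (-0.15).

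**Figure D5:**
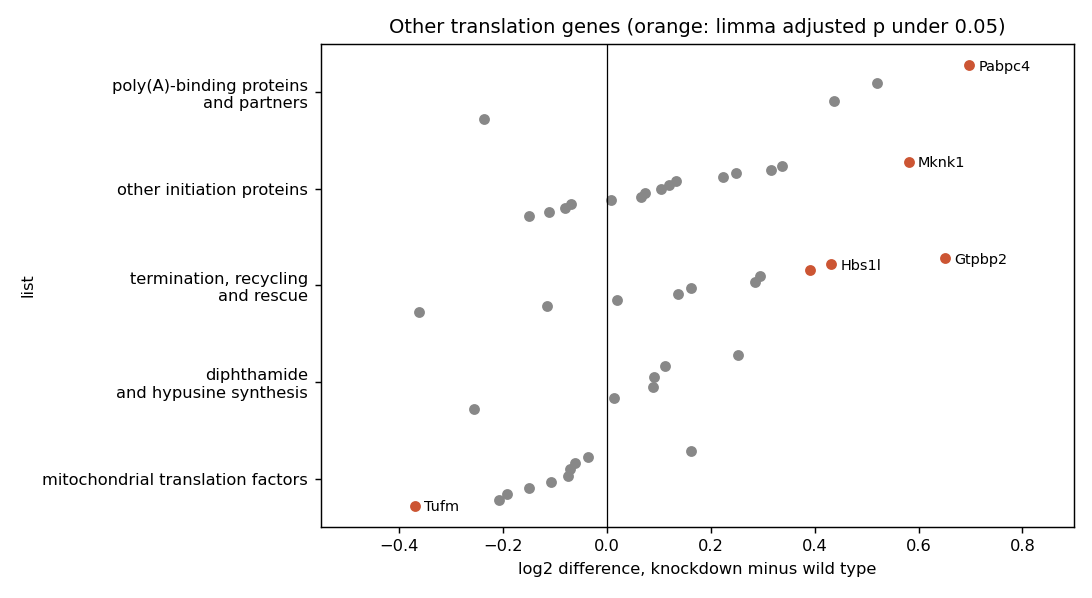
Log2 difference between knockdown and wild-type hearts (horizontal axis) for each tested probe of 5 lists of other translation genes (vertical axis), with probes past the limma threshold in orange and their genes named. Pabpc4, Mknk1, Gtpbp2 and both Hbs1l probes lie to the right of 0 and Tufm to the left, at -0.37.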

How the data were processed

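Hearts of 4 Taz knockdown and 4 wild-type mice, each a separate mouse per the labels, were measured on 1 array each. RNA was extracted with Trizol, column-cleaned with DNase and amplified to biotin-labelled RNA, as the labels' protocols say. The main deposited table gives, per the file headers, the non-normalized intensity of each probe on each array beside its detection p-value; values are linear, and those below 0 show a subtracted background. A second deposited table of intensity had the same upper quartile on every array and was used as an alternative. The labels name neither the scanner software nor the background step. Intensities were corrected by normexp from the detection p-values (offset 16), quantile-normalized and log2-transformed (neqc, limma 3.58.1, R 4.3.3). Probes detected on 4 or more arrays were tested, two-sided, with lmFit and eBayes, and p-values adjusted by Benjamini-Hochberg over all 9397. The offset shrinks fold changes of dim probes. Gene names come from the platform annotation, with current symbols by Entrez number for 23962 of 23978 named probes. The fit was also run on simulated data with independent noise, only to check that the code recovers large shifts. Its power at the size of the differences reported here is not given.

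Values in every heart are given for factor probes that passed and, in each factor, for the probe with the smallest p and the one with the highest intensity. Of the other lists, genes that passed and the smallest p of each list are named; further genes were chosen after their values were seen. Groups and numbers came from the sample descriptions. Same-numbered hearts deviated from their group means with correlations of 0.17, 0.01, -0.09 and -0.01, so the numbers were not taken as pairs. The members, lists and alternatives were chosen with earlier results of these data known. The number of arrays limits the precision.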

Additional observations from a re-analysis of the deposited data

Results flagged for a closer look

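In 4 of 114 groups of 4 hearts (57 factor probes in 2 groups each) 1 heart stood far from the other 3, its gap to the nearest taking most of the group's range; chance alone does this in about 1 in 20 groups. Eif5 by ILMN_1240466 did so in both groups. Wild-type heart 3 read 7.65, with the others between 7.36 and 7.404. Knockdown heart 3 read 7.81, with the others between 8.07 and 8.111. Both of these hearts lie toward the other group. Eif1a in knockdown heart 3 read 5.87, with the others between 6.20 and 6.236, and Eif4h in wild-type heart 4 read 11.58, with the others between 11.41 and 11.418. The causes were not tested.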

How the results depend on the processing

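In all 19 alternatives no factor probe was lower after adjustment, the share of positive differences lay between 71.9% and 86.4% and the median difference between 0.09 and 0.17. The count of 3 higher probes, where 6.58% of all tested probes were called in either direction, changed with the setting. It became 8 with an offset of 50 (9.42% of all tested probes called). With detection p under 0.01 on all 8 arrays it was 6 of 44 factor probes (11.2% of all). With a variance prior that follows intensity it was 10 (10% of all). All 3 settings added Eif5a, Eef1b2 and Eef1g, offset 50 and the prior also Eif3c, and the prior Eif4e2 and Eef2. The count was 1 with the replicate block (Eif5, ILMN_3072536, with 4.25% of all called), though the numbers are not shown to pair hearts. It was 0 with Myl7 as a covariate (1.05% of all) and 3 to 4 without single hearts (4.13% to 5.59% of all). Higher probes at an unadjusted p under 0.05, 17 in number (9.92% of all tested probes were so), were 6 with the Myl7 covariate. With probes averaged they were 11 genes (31.4%, against 10.1% of all named genes). Lower ones were 1 against wild-type hearts 3 and 4 alone (Eif4a2) and 0 to 1 without single hearts (Eif4a2 without knockdown heart 1, Eef2k without knockdown heart 2). Apart from the averaged fit, the share of all tested probes at this unadjusted threshold was not computed in the alternatives. Those counts therefore have no background beside them. The median was 0.0946 with no detection filter. Where the count stayed at 3, the probes were not always those of Eif5. Against wild-type hearts 3 and 4 alone (3.98% of all tested probes called) they were Eif5, Eif4e2 and Eif5a. Without the dimmest arrays (3.35% of all) they were Eif5 (2 probes) and Eif3c. Of the other translation probes, 5 higher became 8 with offset 50, 0 with the Myl7 covariate, 3 against wild-type hearts 3 and 4 alone, 1 without the dimmest array of each group and 3 to 6 without single hearts (3 without wild-type heart 1 or 3 or knockdown heart 1 or 2); the 1 lower became 0 under 75th percentile scaling, the replicate block, the Myl7 covariate, wild-type hearts 3 and 4 alone, without the dimmest arrays and without any single heart. Taz by ILMN_2696855 did not pass with the Myl7 covariate (-1.15, adjusted p = 0.0670). Signs turned for Eif1b (-0.0475 with Myl7, -0.25 against wild-type hearts 3 and 4, -0.0926 to 0.277 without single hearts), Eif2d (0.0591 without the dimmest arrays, -0.0912 to 0.0614 without single hearts), Eif4e3 (-0.0200 averaged) and Eef1a2 (-0.0163 with Myl7); none of these was a call. The causes were not tested. The median of all probes lay between -0.0263 and -0.00364 in every setting. In the main fit, with 4 arrays per group, no tested probe with a log2 difference smaller than 0.357 in size passed.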
